A study of Mus musculus with 30 samples.

Results

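The comparison describes 20 of 30 mouse retinal pigment epithelium (RPE) samples, chosen by their level of Rpe65, a transcript of RPE cells. All 30 samples were ranked by the deposited FPKM (fragments scaled to transcript length and to the mapped reads of the library) of Rpe65, and the 10 highest were set against the 10 lowest. The other 10 samples, in the middle of the ranking, belonged to neither side. Of 51904 genes in the table, 16741 reached 1 FPKM or more in at least 5 samples and entered the comparison. The sides were thus made from measured values and are not groups of the study, so their differences are given as a description, with no test.

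Each library came from 1 eye of a male wild-type C57BL/6 mouse between 10 and 13 weeks old. The mice were killed at 6 zeitgeber times (ZT), 5 per time: ZT0, ZT2, ZT4, ZT9, ZT14 and ZT19. The labels give no allele or treatment, and the study followed transcript levels over the day. Cornea, iris, lens and retina had been taken away from the eye, and clumps of pigmented cells were then lifted off the choroid with forceps for bulk RNA sequencing. Such samples can hold RNA of neighbouring tissues. In bulk samples fewer cells of a type and less RNA per cell cannot be told apart. FPKM values are also shares of a library, so a low value of an RPE gene and a high value of genes from another tissue cannot be told apart as separate events.

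The RPE is a single layer of pigmented cells between the photoreceptors and the choroid. It regenerates the visual chromophore in the retinoid cycle: Lrat esterifies retinol, Rpe65 turns the ester into 11-cis-retinol, Rdh5 oxidises this to 11-cis-retinal, and the carrier Rlbp1 binds both 11-cis forms. The same cells take up retinol from blood, make melanin, carry ions and lactate, engulf shed outer segments and secrete factors towards the choroid. Otx2 and Mitf are transcription factors of this cell layer.

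The promoters shown are those of Rpe65, which ranked the samples, and of Rgr, an opsin-like receptor for retinal. Among genes with a median of at least 10 FPKM, Rgr had the highest rank correlation with Rpe65 over the 30 samples (0.94). Otx2 was itself higher on the high side, and its part in these differences was not tested. Capitals mark matches on either strand to a core motif of OTX proteins (TAATCC, or GGATTA on the other strand) and to an E-box that MITF can bind (CACGTG, or either strand of CATGTG, which reads CACATG on the other). Both motifs were chosen after these values and promoters had been seen. Each sequence runs from 250 bases before to 50 bases after the annotated start, is taken from RefSeq on GRCm38.p6, and is written 5′ to 3′ on the strand of the gene. The Rpe65 window lies at chr3:159598931-159599230 on the plus strand, and the Rgr window at chr14:37048965-37049264 on the minus strand.
Rpe65: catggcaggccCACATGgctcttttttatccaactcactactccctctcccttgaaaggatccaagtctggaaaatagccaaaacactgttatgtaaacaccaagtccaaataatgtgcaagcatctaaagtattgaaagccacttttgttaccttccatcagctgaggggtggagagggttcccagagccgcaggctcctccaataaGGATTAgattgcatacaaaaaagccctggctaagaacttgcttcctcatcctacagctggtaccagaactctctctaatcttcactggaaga
Rgr: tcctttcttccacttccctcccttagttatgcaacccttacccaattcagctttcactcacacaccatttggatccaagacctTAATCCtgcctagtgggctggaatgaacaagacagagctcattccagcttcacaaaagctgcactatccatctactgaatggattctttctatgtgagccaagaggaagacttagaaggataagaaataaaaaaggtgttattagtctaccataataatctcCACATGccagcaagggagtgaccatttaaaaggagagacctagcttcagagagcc

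Counted from the annotated start, the OTX core began at -42 in the Rpe65 window and at -167 in the Rgr window. The E-box began at -239 and at -5, respectively. Of 8 retinoid cycle genes, 7 had a promoter in the RefSeq table, with the OTX core in 2 genes and the E-box in 4. The 2 with the OTX core are the genes shown, Rpe65 and Rgr, while Lrat, Rdh5 and Rrh held neither motif. Over all 32851 promoter windows of that table, 7.1% held the OTX core and 20.4% the E-box. These are shares of windows, from 27025 genes, whereas a retinoid cycle gene was counted if any of its windows matched. The 2 measures are thus not alike. The motifs do not overlap each other in the windows shown, and a match describes letters, not a bound site.

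In the ranking, Rpe65 ranged from 1116 to 1648 FPKM on the high side, with a median of 1342 FPKM. On the low side it ranged from 336 to 799.53 FPKM, with a median of 640.4 FPKM, and the 10 middle samples lay between 818 and 1100.04 FPKM. No gap set the sides apart. The last sample on the high side, ZT19 replicate 2, had 1116 FPKM against 1100.04 FPKM in ZT14 replicate 1 just outside, and the first on the low side, ZT9 replicate 2, had 799.53 FPKM against 818 FPKM in ZT2 replicate 5.

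**Figure D1:**
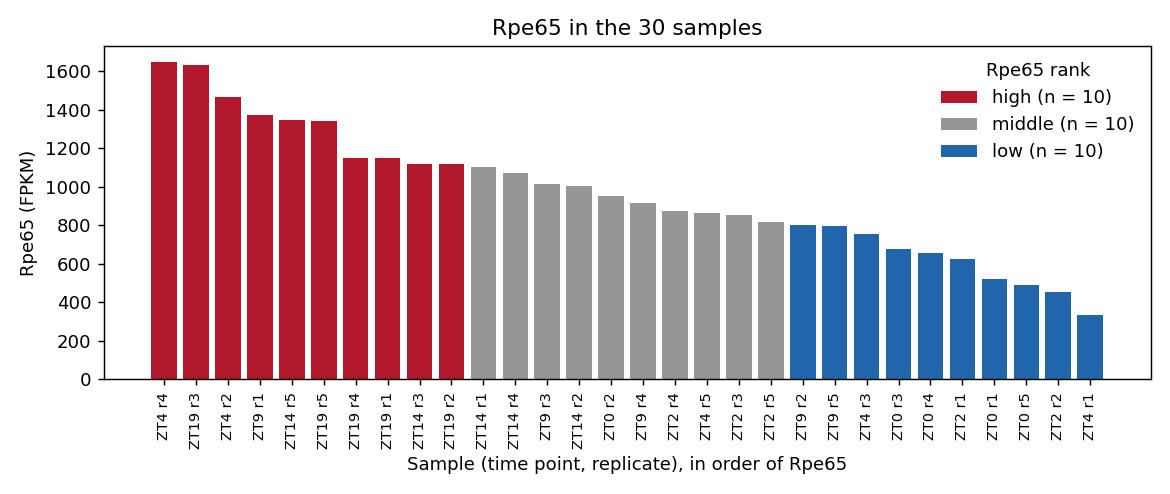
Rpe65 FPKM (vertical axis) in each of the 30 samples (horizontal axis, time point and replicate), ordered by that value; 1 bar is 1 sample, red the 10 high, grey the 10 middle and blue the 10 low samples. All 5 ZT19 samples are on the high side, and 4 of 5 ZT0 samples are on the low side.

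The sides differed in their times of day. All 5 ZT19 samples were high, and of ZT0 none was high, 1 was in the middle and 4 were low. ZT2 gave 0 high, 3 middle and 2 low samples, and ZT14 gave 2 high, 3 middle and 0 low. Only ZT4, with 2 high and 2 low, and ZT9, with 1 high and 2 low, stood on both sides. Left eyes gave 4 of the high and 6 of the low samples.

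By the labelled times, Rpe65 averaged 660 ± 183 FPKM at ZT0 (SD, n = 5), 724 ± 181 FPKM at ZT2, 1014 ± 537 FPKM at ZT4, 979 ± 238 FPKM at ZT9, 1127 ± 130 FPKM at ZT14 and 1276.5 ± 216 FPKM at ZT19. The 5 values of ZT0 (492 to 953 FPKM) and of ZT19 (1116 to 1629 FPKM) did not overlap, while ZT4 held both the highest and the lowest of the 30 samples, from 336 to 1648 FPKM. Neighbours in this order overlapped in their values. The F test of limma over time points gave an adjusted p = 0.457 for Rpe65 (Benjamini-Hochberg over all 16741 genes; unadjusted p = 0.0144), so a difference among times was not called. That test called 12 genes (0.0717%) and had 1452 genes at an unadjusted p below 0.05. To separate Rpe65 from time of day, the 2 highest and 2 lowest samples of each time point were also compared, which is called the within-time comparison below. Its medians are given beside those of the lists.

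The estimated depth was 15.2 to 21.5 M reads on the high side, 15 to 23 M in the middle and 12.5 to 23 M on the low side (M: mega). ZT14 replicate 3, on the high side, stands apart: it had 12754 genes above 0, against 16968 to 19374 in the middle and low samples, and listed 537 genes at 0 that had a median of at least 10 FPKM. Among the markers of RPE, Rpe65, Ttr, Rgr, Rlbp1 and Lrat were abundant in all 30 samples. Best1, a chloride channel of RPE, was near 0 throughout, with means of 0.57 FPKM on the high and 0.61 FPKM on the low side.

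All 8 retinoid cycle genes had a higher mean on the high side, and 4 of them (Rpe65, Rgr, Rdh10 and Rrh) had no overlap between the sides, as had 0.0956% of all genes in this direction. For Rpe65 the ranking itself fixed this. Differences are given as mean log2(FPKM + 1) on the high side minus that on the low side. The list's median difference, with Rpe65 included, was 0.92 on this scale. The other members ranged from 0.72 (Rdh11) to 1.08 (Lrat). Over all genes the median was -0.02, and 47.8% of them had a positive difference. Rpe65 itself differed by 1.16, with SDs of 0.22 and 0.41 on the high and low side. Since the samples were ranked on Rpe65, this value only describes the choice.

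Rgr ranged from 2715 to 4229 FPKM on the high side (median 3205) and from 1118 to 2498 FPKM on the low side (median 1756). Middle samples had 2189 to 2689 FPKM, a band that lies below every high sample. The difference between the sides was 1.01, with SDs of 0.21 and 0.38. Rgr lies on chromosome 14 from 37034909 to 37048964 and Rpe65 on chromosome 3 from 159599175 to 159625321 (GENCODE M21, GRCm38). The Rgr promoter window shown above lies wholly outside this GENCODE gene, because RefSeq places the start further upstream, so its motif positions hold for the RefSeq start only.

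Rdh10, a retinol dehydrogenase, had 331 to 577 FPKM on the high side (median 373) and 138 to 312 FPKM on the low side (median 218), a difference of 0.95. Rrh, or peropsin, another opsin-like protein of RPE, had 118.4 to 176 FPKM (median 131) against 40.4 to 117.6 FPKM (median 80.03), a difference of 0.90 with a margin of under 1 FPKM between the sides. Lrat had 181 to 326 FPKM (median 244) against 68.4 to 215.5 FPKM (median 119), and its difference of 1.08 was larger than that of Rgr although the sides overlapped. Both the level and the order of the samples thus varied from gene to gene.

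Rlbp1 had 831 to 1379.95 FPKM on the high side (median 996) and 341 to 962 FPKM on the low side (median 598), a difference of 0.81. Rdh5 had 1215 to 2139.7 FPKM (median 1377) against 512 to 1400.6 FPKM (median 843), a difference of 0.86. In both genes the highest low sample was ZT4 replicate 3. Rdh11, another dehydrogenase of the cycle and the least abundant member, had 22.6 to 56.05 FPKM (median 45.3) against 14.3 to 32.4 FPKM (median 24.8), a difference of 0.72.

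**Figure D2:**
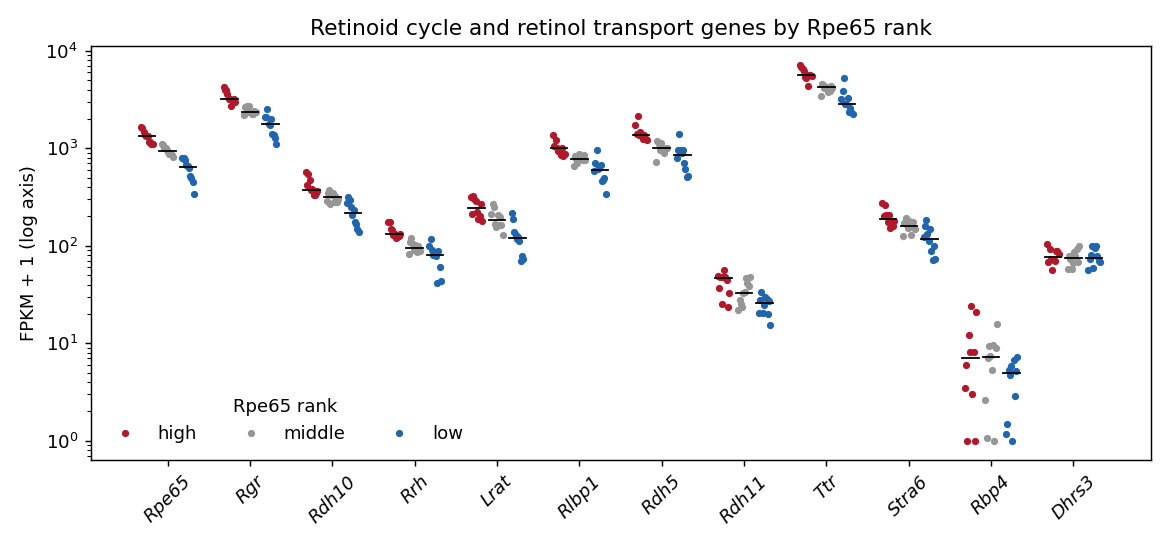
FPKM + 1 (log axis) of genes of the retinoid cycle and retinol transport (horizontal axis) in the high (red), middle (grey) and low (blue) samples; 1 point is 1 sample and the black line is the median of its 10 samples. For Rgr the red points (2715 to 4229 FPKM) lie above all blue points (1118 to 2498 FPKM), whereas Dhrs3 has medians of 76.6 and 74.8 FPKM.

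The ratio of Rgr to Rpe65 had medians of 2.60, 2.61 and 2.73 on the high side, in the middle and on the low side. For Ttr the ratio to Rpe65 had medians of 4.40, 4.39 and 5.00. FPKM is scaled by transcript length, so these ratios compare levels per length. The low side ranged from 2.61 to 3.32 for Rgr and from 4.00 to 6.90 for Ttr. Because the divisor chose the sides, a low Rpe65 raises these ratios by construction, and nothing is read from their order.

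Of 5 retinol transport genes, all had a positive difference, with a median of 0.71, and none was free of overlap. Ttr, the carrier of thyroxine and of the retinol-binding protein complex, had 4337 to 7188 FPKM on the high side (median 5649) and 2240.2 to 5211 FPKM on the low side (median 2866), a difference of 0.96. Its overlap came from ZT4 replicate 3 on the low side and ZT19 replicate 4 on the high side. Stra6, the receptor for retinol-binding protein, had medians of 189 and 117 FPKM and a difference of 0.78.

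Dhrs3, which reduces retinal to retinol, had the smallest difference of the list, 0.04, with 55.2 to 102.6 FPKM on the high side and 55.7 to 98.4 FPKM on the low side, and its sign turned under both other scalings (-0.05 with median-of-ratios scaling). Rbp4, the retinol carrier of plasma, was low, with medians of 6.08 and 3.93 FPKM, and samples of both sides were listed at 0. In the within-time comparison the list medians were 0.57 for the retinoid cycle and 0.51 for retinol transport, against 0.70 for Rpe65 itself. All 8 and all 5 members stayed positive, but Rpe65 is among the 8 and ranked the samples here too. The difference in Rpe65 between the sides is smaller there by construction, since each time point gives both sides.

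Over all genes, 16 were higher (0.0956%) and 32 lower (0.191%) with no overlap between the 10 high and 10 low samples. These counts rest on the contrast that chose the samples. Beside Rpe65, Rgr, Rdh10 and Rrh, the higher genes included Acsl6, Arl6ip1, Fads3, Otx2, Slc6a20a, Slc16a1, Tmem47, Pip4k2c, Mtx3 and mt-Nd4. All 16 and all 32 kept their direction in the within-time comparison. That comparison ranked by Rpe65 again and shared 7 of the high and 8 of the low samples, so this was largely fixed in advance. With its samples, 0 genes were higher and 0 lower without overlap. The counts were fragile: with any 1 of the 10 high samples left out, ZT14 replicate 1 took its place and the counts were 4 to 7 higher and 2 to 3 lower, including 6 and 2 without ZT14 replicate 3. Without ZT4 replicate 3, on the low side, they were 38 and 134.

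Acsl6, which activates long-chain fatty acids, had 171 to 290.1 FPKM on the high side (median 200.1) and 83.2 to 153 FPKM on the low side (median 107), a difference of 0.97. Otx2 had 149.1 to 215 FPKM (median 192) against 66.1 to 144 FPKM (median 111), a difference of 0.81. The middle samples of Otx2 reached 178 FPKM, so the high side was not set apart from the middle in this gene.

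Arl6ip1, a membrane protein of the endoplasmic reticulum, had 1195 to 1843 FPKM on the high side and 402 to 1110.07 FPKM on the low side, a difference of 0.83. Slc16a1, the lactate carrier MCT1, had 127 to 197 FPKM against 65.2 to 123 FPKM, a difference of 0.75. Slc6a20a, a proline transporter, differed by 0.79 and Fads3, of the fatty acid desaturase family, by 0.83.

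Likeness to Rpe65 was also measured as Spearman's rank correlation over all 30 samples, among genes with a median of at least 10 FPKM. These values describe the same samples that were ranked, which share depth and tissue make-up. The 10 most alike genes included Rgr (0.94), Car14 (0.93), Arl6ip1 (0.93), Enpp2 (0.93), Rdh10 (0.91), Pon1 (0.91), Slc16a1 (0.91), Timp3 (0.91) and Tmem56 (0.91). Car14, a membrane carbonic anhydrase, had 247 to 326 FPKM on the high side and 126 to 251 FPKM on the low side. Enpp2, or autotaxin, which makes lysophosphatidic acid, had medians of 762 and 393 FPKM, and Timp3, an inhibitor of matrix metalloproteinases kept in Bruch's membrane, had 895 and 499 FPKM. Pon1, a paraoxonase, had the largest positive difference of the genes named here, 1.23, with medians of 284 and 118 FPKM.

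Other lists of RPE functions had smaller median differences than the retinoid cycle, whose list includes Rpe65. For RPE transport, 15 of 17 genes were higher, with a median of 0.50 (0.31 within time). The potassium channel Kcnj13 differed by 1.02 and the lactate carrier Slc16a8 (MCT3) by 0.84. The chloride cotransporter Slc12a2 differed by 0.06, and the lowest member of the list by -0.20. For secreted factors, 9 of 10 were higher with a median of 0.60 (0.38 within time), from Sulf1, an extracellular sulfatase, at 1.04 to the matrix protein Efemp1 at -0.31. Vegfa, a growth factor for the choroidal vessels, differed by 0.58.

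Of 14 melanogenesis genes 12 were higher, with a median of 0.47 (0.32 within time). The members differed among themselves: the melanin enzyme Tyr differed by 0.71 and Myrip, a linker in melanosome movement, by 0.82, but the abundant Dct and Pmel only by 0.17 and 0.21. Dct averaged 1591 FPKM on the high and 1424 FPKM on the low side, and Tyr 116.5 and 74.5 FPKM. Melanocytes of the choroid also express these genes. Markers of melanocytes and Schwann cells had 6 of 10 genes higher, with a median of 0.52 (0.32 within time) and a range from -0.89 to 0.94.

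Transcription factors of RPE did not share a direction, with 3 of 7 higher and a median of -0.00 (-0.00 within time), which was 0.12 with median-of-ratios scaling. Otx2 differed by 0.81 and Mitf, a regulator of pigment cells, by 0.65 (32.7 against 22.7 FPKM). Lhx2, an eye-field factor, differed by -0.00, and Pax6 by -1.16, with means of 71.1 FPKM on the high and 150 FPKM on the low side. Pax6 is also expressed by the epithelium of the ocular surface, whose markers were lower on the high side too, as given below. Their part in this difference was not tested.

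In the phagocytosis list 11 of 18 genes were higher, with a median of 0.29 (0.19 within time). The summed level of the list went the other way, with medians of 1463 FPKM on the high and 1890 FPKM on the low side. The receptor Mertk, with 24.05 and 12.9 FPKM, differed by 0.89, the scavenger receptor Cd36 by 0.81 and the integrin subunit Itgb5 by 0.70. The lowest members of the list were Tulp1, at -1.42, which photoreceptors express, and Anxa2, at -1.26, which was among the 32 lower genes without overlap. Of 26 lysosome and autophagy genes 18 were higher, with a median of 0.17 (0.13 within time), led by the lysosomal precursor Psap at 0.57.

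**Figure D3:**
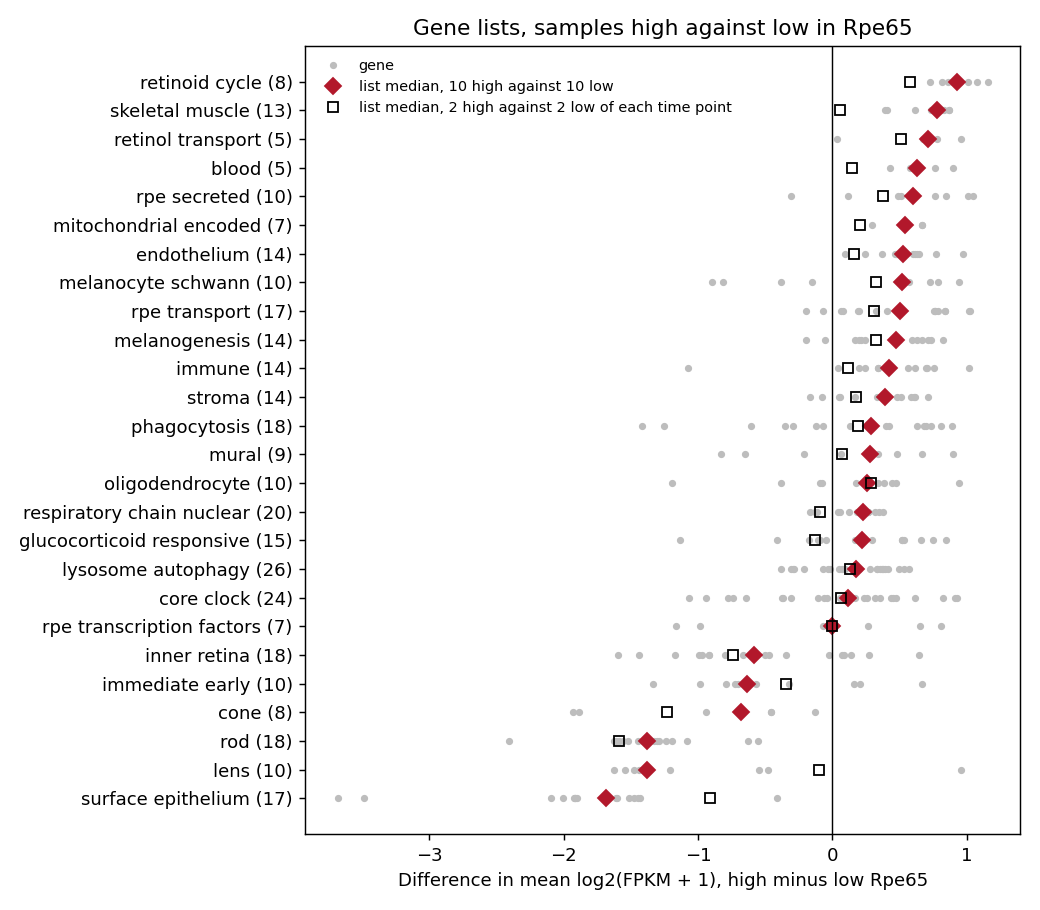
Difference in mean log2(FPKM + 1), high minus low Rpe65 (horizontal axis), for the 26 gene lists (vertical axis, number of genes measured in parentheses); grey points are genes, red diamonds list medians of the 10 high against 10 low samples, and open squares list medians of 2 high against 2 low samples of each time point. The retinoid cycle median, with Rpe65 among its genes, is 0.92 and the surface epithelium median -1.69. The skeletal muscle median of 0.78 is 0.06 within time points.

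Stratified epithelium is the surface tissue of cornea and conjunctiva. All 17 surface epithelium markers were lower on the high side, with a median difference of -1.69 (-0.91 within time), and Krt5, Krt14 and Krt15, keratins of its basal layer, had no overlap, as had 0.191% of all genes in this direction. Krt5 had 261 to 696 FPKM on the high side (median 542) and 782 to 3235 FPKM on the low side (median 2212), a difference of -2.005 (-0.86 within time). Krt14 had 37.8 to 117.2 FPKM (median 73.1) against 149.3 to 602 FPKM (median 233), a difference of -1.92 (-1.18 within time).

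The summed level of the 17 markers was 2927 to 5877 FPKM on the high side, 12187 to 24214 FPKM in the middle and 5626 to 26528 FPKM on the low side. Every high sample was thus below every middle sample, while the medians of the middle (17841 FPKM) and low side (18652 FPKM) were close. The lowest low sample was ZT4 replicate 3, which lies below the highest high sample, ZT14 replicate 5. No marker was at 0 in all samples of a side. The part of surface epithelium in the RPE differences was not tested.

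The 10 largest lower genes without overlap were Fgfbp1, Cysrt1, Ttc22, Rassf7, Lad1, Tmprss11b, Pkp3, Krt5, Bicdl2 and Krt14. Fgfbp1, a secreted carrier of fibroblast growth factors, had 0 to 26.2 FPKM on the high side (median 15.1) and 35.9 to 137 FPKM on the low side (median 93.5). Its value of 0 is that of ZT14 replicate 3, where a listed 0 can be a failed estimate. Lad1, of epithelial anchoring filaments, had medians of 12.3 and 49.8 FPKM, and Pkp3, of desmosomes, 25.7 and 109.9 FPKM. In the middle samples the medians were 48.1 FPKM for Lad1 and 99.7 FPKM for Pkp3, close to the low side.

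Among the other 22 lower genes were Krt15 (-1.60), the envelope protein Evpl (-1.91), the bladder and surface epithelial protein Upk1b (-1.56), the laminin chain Lamb3 (-1.74) and Anxa2. Mcu, the pore of the mitochondrial calcium uniporter, differed by -1.15 with medians of 7.34 and 16.6 FPKM. Of the 32 lower genes, 28 belonged to none of the lists, and 8 of the 16 higher genes did not either. These genes were named after their values were seen.

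Rod genes were lower on the high side in 18 of 18 members, with a median difference of -1.38 and -1.59 within time points. Gnat1, the alpha subunit of rod transducin, averaged 271 FPKM on the high and 723 FPKM on the low side. Their summed level ranged from 625.2 to 9383 FPKM on the high side (median 1084), from 522 to 7398 FPKM in the middle (median 836) and from 462 to 16217 FPKM on the low side (median 5435). The sides overlapped from 625.2 to 9383 FPKM: ZT19 replicate 1 on the high side had 9383 FPKM and ZT0 replicate 1 on the low side had 462 FPKM.

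Cone genes were lower in 8 of 8 measured members (median -0.68, -1.23 within time) and inner retina genes in 13 of 18 (median -0.58, -0.74 within time), with summed medians of 84.02 and 169 FPKM for cones and of 1259 and 1233 FPKM for the inner retina on the high and low sides, so the summed level of the inner retina did not follow its median. Lens genes were lower in 9 of 10, with a median of -1.38 that was -0.10 within time points. Their highest sum, 1617 FPKM, was in ZT0 replicate 3. The part of retina and lens in the RPE differences was not tested.

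Markers of choroid, stroma and blood went the other way. All 14 endothelial genes had a positive difference, with a median of 0.53 (0.16 within time), and Eng, a TGF-beta co-receptor of endothelium, had means of 63.1 and 32.4 FPKM. Stroma had 12 of 14 higher (median 0.39, 0.17 within time), mural cells 6 of 9 (0.28, 0.07 within time) and immune cells 13 of 14 (0.42, 0.12 within time). The lowest members of these lists differed by -0.17, -0.83 and -1.07. Blood had 5 of 5 higher, with a median of 0.63 that was 0.14 within time and -0.13 without all ZT0 and ZT19 samples. Oligodendrocytes had 6 of 10 higher, with members from -1.20 to 0.94. The oligodendrocyte median of 0.26 was 0.28 within time, -0.05 with median-of-ratios scaling and -0.47 when mitochondrial and small RNA genes were left out of the scaling. The summed endothelial level was 477 to 979 FPKM on the high side, 414 to 612 FPKM in the middle and 253 to 693 FPKM on the low side.

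All 13 skeletal muscle genes were higher too, with a median of 0.78. The median was 0.06 within time points and -0.04 without all ZT0 and ZT19 samples, and that of the retinoid cycle was 0.57 and 0.75. None of the 13 muscle genes was called by time point in the limma F test, 6 of them had an unadjusted p below 0.05, and the part of time of day in this difference was not tested further. The summed muscle level had medians of 11042 FPKM on the high and 5843 FPKM on the low side, and its highest value, 30212 FPKM, was that of ZT19 replicate 2. Mylpf, a fast myosin light chain, averaged 3812 and 2118 FPKM.

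**Figure D4:**
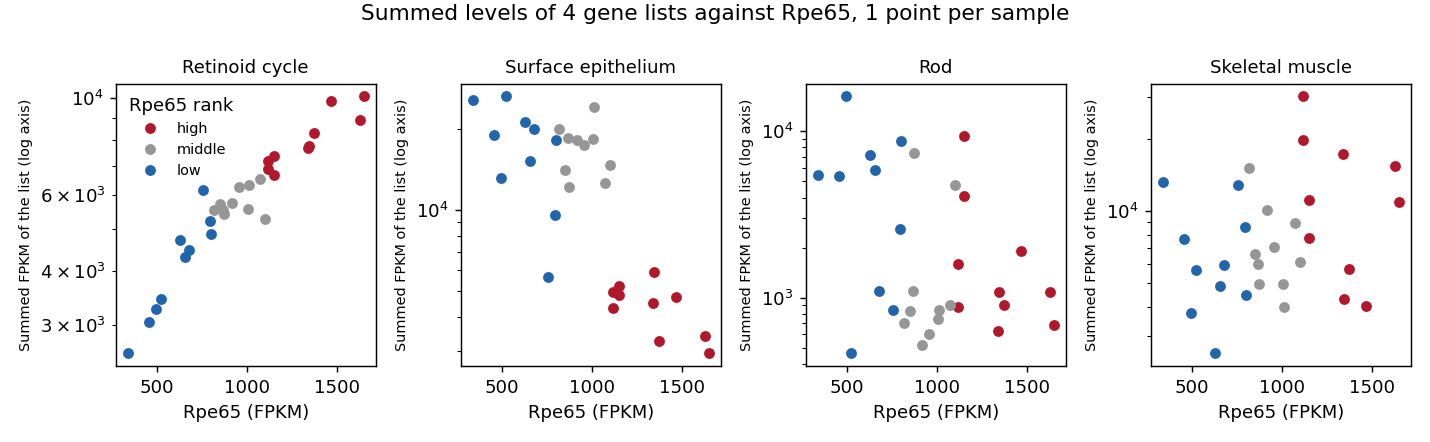
Summed FPKM of 4 gene lists (vertical log axes) against Rpe65 FPKM (horizontal axes); 1 point is 1 sample, red high, grey middle and blue low. In the surface epithelium panel the 10 high samples (2927 to 5877 FPKM) lie below all middle samples (12187 to 24214 FPKM), and the rod sums of the 3 sets overlap.

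Mitochondrially encoded genes were higher in 7 of 7 that passed the filter, with a median of 0.54 (0.20 within time). The other 6 of 13 were below the filter, among them mt-Co2 and mt-Atp6, although the genome they share was abundant: mt-Co1 averaged 6048 and 4067 FPKM. Their zeros can thus be failed estimates. Nuclear genes of the respiratory chain had 17 of 20 higher with a median of 0.22, which was -0.09 within time points.

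Of 24 core clock genes, 13 were higher and the median was 0.11 (0.06 within time). The 5 with the largest differences were Ciart (-1.07), Npas2 (-0.94), Per2 (0.93), Tef (0.91) and Cry1 (0.82). Within time points these were -0.64, 0.14, 0.20, 0.71 and 0.01. Ciart and Per2 encode repressors of the clock, as does Cry1, Npas2 an activator, and Tef a transcription factor of clock output. Immediate early genes had 7 of 10 lower (median -0.64, -0.35 within time), with Fos at -1.34, and glucocorticoid-responsive genes had a median of 0.22 that was -0.13 within time points.

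The 10 middle samples, which neither side used, were used for the only test of a relation to Rpe65. In them limma fitted for each gene a slope of log2(FPKM + 1) on that of Rpe65, so that a slope of 1 means equal proportional change. The fit had no term for time of day. Among these samples ZT14 held ranks 11, 12 and 14, and ZT2 held ranks 17, 19 and 20. A slope on Rpe65 thus cannot be told apart from a change with time of day. Rpe65 spanned only 0.43 on the log2 scale in these samples. Of 16740 genes tested, 0 (0.0%) were called at an adjusted p below 0.05, and 919 (5.49%) had an unadjusted p below 0.05. The median SE of a slope was 1.18 over all genes, larger than a proportional slope, and 0.47 over the retinoid cycle genes tested.

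For the retinoid cycle genes and Ttr the slopes were smaller than their SE, apart from those of Lrat and Rdh11. All but that of Lrat were below a proportional slope of 1. The slopes were 0.19 ± 0.42 for Rgr (SE, n = 10, adjusted p = 0.984), 0.20 ± 0.44 for Rdh10 and 0.39 ± 0.47 for Rrh. Ttr had -0.02 ± 0.46, Rlbp1 -0.34 ± 0.40 and Rdh5 -0.19 ± 0.51. Lrat had 1.55 ± 0.57 with an adjusted p of 0.865, and Rdh11 -2.58 ± 0.52 with an adjusted p of 0.665, the opposite sign to its difference between the sides.

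Of the 15 higher genes other than Rpe65, 11 had a positive slope (73.3%), with a median of 0.21, against 49.1% of all genes. None of the 15 had an unadjusted p below 0.05. Of the 32 lower genes 18 had a negative slope, with a median of -0.10, and 2 had an unadjusted p below 0.05. Surface epithelium markers had 10 of 17 slopes above 0 and rod genes 14 of 18, although both lists were lower on the high side. No slope of these 2 lists had an unadjusted p below 0.05, and the rod median of 0.87 had a median SE of 4.42. All 13 muscle genes, all 10 lens genes and all 5 blood genes had a negative slope, with 0, 1 and 1 at an unadjusted p below 0.05. Members of a list share the tissue make-up of each sample, so they are not separate observations and nothing is read from these counts.

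**Figure D5:**
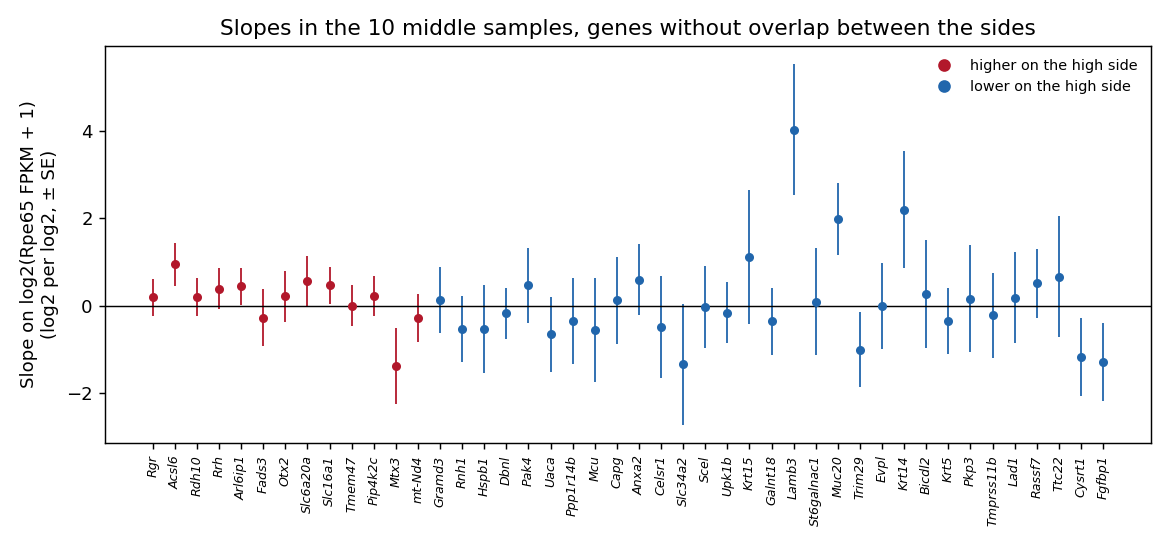
Slope of each gene's log2(FPKM + 1) on that of Rpe65 in the 10 middle samples (vertical axis, log2 per log2), for genes without overlap between the sides (horizontal axis); red genes were higher and blue genes lower on the high side, and bars are 1 SE. Most bars cross 0, and both red and blue slopes lie on either side of 0.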

How the data were processed

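Values are the FPKM deposited by the authors in 1 table of 30 samples and 51904 Ensembl genes, with decimal commas. STAR, Cufflinks, DESeq2 and mm10 appear in the submitters' processing notes, without versions or roles; how shared reads were treated is not given in the sources used here. Counts were not used.

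Samples were ranked by Rpe65, and log2(FPKM + 1) was averaged over 10 samples a side. A gene did not overlap when its lowest value on one side exceeded the highest on the other. A mean-variance trend was used in limma (version 3.58.1, R 4.3.3), which gave the F test over time points and the slopes, two-sided. Both were adjusted by Benjamini-Hochberg with a threshold of 0.05. The code of both was run on simulated data, made from values with the time point means removed. The simulated slopes were all above 1, so these runs do not show whether a proportional slope would be found. Other steps ran in Python 3.11.15. Depth was estimated from FPKM steps, not from counts. Of the IDs, 51711 were found in GENCODE M21 (GRCm38); of IDs sharing a symbol, the most abundant was used.

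The samples, the 26 gene lists and the tests were chosen with earlier results of these data known. Genes were named by rule: retinoid cycle and retinol transport members, the 10 largest differences without overlap in each direction with a mean of at least 10 FPKM, the 10 most like Rpe65, the extremes of each list and 5 clock genes; others are list examples. Some genes are counted but not reported by name here. Alternatives were the pseudocount, filter, scaling, side size, eye, time point, ranking gene and each sample left out.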

Additional observations from a re-analysis of the deposited data

Results flagged for a closer look

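Within each side, 70 sets of 10 values, or 5 for Rpe65 at a time point, were examined for a sample far from the others: retinoid and retinol genes, the largest genes without overlap, Rpe65 by time point and 5 sample measures. Dixon's ratio picked out 2 values, where chance gives about 5% of sets. ZT4 replicate 3 stood above the other low samples in Rdh5, with 1400.63 FPKM. The same sample had the lowest summed surface epithelium level of the low side, 5626 FPKM. On the high side ZT14 replicate 3 had 12754 genes above 0, fewer than any other sample of that side.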

How the results depend on the processing

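Named-gene differences and list medians moved by less than 1 SD in 3422 and 1059 recomputed values and by more in 102 and 6. The SD was pooled from those within the high and low sides, which mix time points, and was the median over members for a list. Of the settings, 30 left out 1 sample. Leaving out any of the 10 middle samples left both sides unchanged, so it could not change a gene's difference. The sign was the same in every setting for 72 of 86 named genes and 20 of 26 list medians; it turned in at least 1 setting for 14 genes, among them Dhrs3, Rbp4, Tek, Npas2 and Best1, and for 6 lists (RPE transcription factors, oligodendrocyte, respiratory chain, glucocorticoid, blood and skeletal muscle). The counts of genes without overlap, higher and lower, were 5 and 2 with median-of-ratios scaling, 632 and 707 with 5 samples a side, 1 and 0 with 15 a side, 0 and 0 within time points, 10 and 15 within eyes and 61 and 181 when ranked by the other retinoid cycle genes. Rescaling without mitochondrial and small RNA genes gave 23 and 3. After seeing the data 2 alternatives were added: centring on time point means gave 5 and 0, and leaving out ZT0 and ZT19 gave 22 and 16. More samples a side make overlap likelier by construction; other causes were not tested. Leaving out each sample in turn gave 4 to 38 higher and 2 to 134 lower, an adjusted p of 0.134 to 0.617 for Rpe65 by time point, and 0 to 0 slopes called in the middle samples. Without a filter on low values 1 slope was called. No paired analysis was possible because replicate numbers follow accession order and pair no mice. Low FPKM rest on few reads, and FPKM hold no counting error.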
